A study of Mus musculus with 4 samples.

Results

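Matrix metalloproteinases (Mmp), ADAM and ADAMTS proteases with their ADAMTS-like relatives (Adam, Adamts, Adamtsl) and the tissue inhibitors of metalloproteinases (Timp) were followed across 4 RNA sequencing libraries of the mouse left ventricle. Members were taken by symbol, as every listed gene named Mmp, Adam or Adamts with a number, Adamtsl, or Timp1 to Timp4. The files list 65 such genes among 17550 genes in all: 19 Mmp, 20 Adam, 22 Adamts or Adamtsl and 4 Timp genes. Of these, 45 reached 1 RPKM in at least 1 library (RPKM scales reads by gene length and by library total, so that levels can be set side by side between genes). The other 20 stayed below 1 RPKM in every library and are only counted.

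All animals were C57BL/6 mice of 8 weeks, either wild type or Neil3-/-, and all had an induced myocardial infarction 3 days before the ventricle was taken. The 4 groups are wild-type non-infarcted, wild-type infarcted, Neil3-/- non-infarcted and Neil3-/- infarcted left ventricle, with 1 library each. Non-infarcted tissue therefore also came from hearts with an infarct, and no unoperated heart was analysed here. The labels do not say how many mice went into a library, nor which part of Neil3 was deleted. The libraries held 14.3 M to 18.2 M assigned reads. Neil3, the targeted DNA glycosylase gene, was at 1.83 and 3.95 RPKM in the wild-type libraries and at 12.0 and 18.5 RPKM in those labelled Neil3-/- (non-infarcted and infarcted in turn), so the read number goes against the label, and genotypes are given below as labelled ("those labelled Neil3-/-" are these libraries). With 1 library per group no difference has a replicate check and no test was run. Ranges in parentheses after a ratio are exact 95% counting intervals, which cover the sampling of reads only.

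These enzymes are zinc-dependent proteases outside the cell or at its surface. MMPs cut collagens, gelatin, elastin and other matrix proteins, most ADAMs release the outer part of membrane proteins such as cytokines, growth factors and their receptors, and ADAMTS enzymes cut proteoglycans, trim procollagens or bind matrix. TIMPs occupy the active site of these enzymes and so limit their action. In the infarcted heart, leukocytes and fibroblasts bring in proteases that clear damaged matrix before a scar forms.

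Several of the MMP genes that were higher in infarcted tissue lie next to each other. In the RefSeq gene table of assembly GRCm38.p6, a stretch of chromosome 9 carries 10 Mmp genes, of which 6 were listed in the files and 5 reached 1 RPKM (Mmp13, Mmp12, Mmp3, Mmp8 and Mmp27, in that order). RefSeq promoter windows, from 250 bases before to 50 after a start site, were found for 31 of the 45 members, as 35 windows. They were searched for TGANTCA, a pattern that reads the same on both strands. It holds TGACTCA and TGAGTCA, the binding sequences of the AP-1 factors Fos and Jun, but allows any middle base. The share over all windows therefore counts more than these AP-1 sequences, while all matches of members had C or G in the middle. The pattern as searched is meant below. TGANTCA was found in 4 of the 35 windows (11.4%) and in 2565 of 32851 windows of all genes (7.81%). The windows of Mmp13, Mmp3 and 1 of the 2 start sites of Mmp12 held it, as did 1 of the 3 start sites of Adam19. Mmp8 and Mmp27 of the same stretch were also higher in both infarcted libraries and were not among the members with a match. Neither were Mmp9, Mmp14, Adamts4 and Timp1, though not every member had a window. A match describes these letters only and is not evidence of binding. The 250 bases before the start are printed for the 3 neighbouring MMP genes because all 3 had higher levels in both infarcted libraries and carry the site at a like distance. Each is on the plus strand of GRCm38.p6, 5′ to 3′, with the TGANTCA match in capitals, at chr9:7272264-7272513 for Mmp13, chr9:7347124-7347373 for Mmp12 and chr9:7445572-7445821 for Mmp3.
Mmp13: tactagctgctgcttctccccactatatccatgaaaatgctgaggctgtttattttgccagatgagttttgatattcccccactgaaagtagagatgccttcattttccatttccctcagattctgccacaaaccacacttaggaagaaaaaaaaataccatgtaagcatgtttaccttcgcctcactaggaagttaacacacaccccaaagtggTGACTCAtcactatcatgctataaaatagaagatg
Mmp12: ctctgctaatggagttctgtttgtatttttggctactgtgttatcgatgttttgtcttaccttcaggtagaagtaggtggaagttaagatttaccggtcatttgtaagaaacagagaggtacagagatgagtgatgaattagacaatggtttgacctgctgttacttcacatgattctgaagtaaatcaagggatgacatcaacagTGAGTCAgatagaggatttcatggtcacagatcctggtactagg
Mmp3: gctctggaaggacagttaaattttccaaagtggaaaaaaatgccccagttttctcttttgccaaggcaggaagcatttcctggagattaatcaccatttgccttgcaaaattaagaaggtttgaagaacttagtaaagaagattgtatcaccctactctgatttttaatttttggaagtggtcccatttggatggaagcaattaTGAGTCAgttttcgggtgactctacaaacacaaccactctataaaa
The first base of the match lies 35, 44 and 46 bases before the start in Mmp13, Mmp12 and Mmp3, and 131 bases before it in Adam19.

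Levels of the 45 members ran from 0.324 RPKM (Mmp27, wild-type non-infarcted) to 655 RPKM (Timp1, infarcted, labelled Neil3-/-). Timp1 had the highest level of the 45 in each of the 4 libraries, and Mmp14 ranked second in both infarcted libraries. The plot of levels by gene shows how far the libraries lie apart for each member. For genes such as Timp1, Mmp9 and Adamts4, libraries of the same tissue lie together and the tissues apart.

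**Figure D1:**
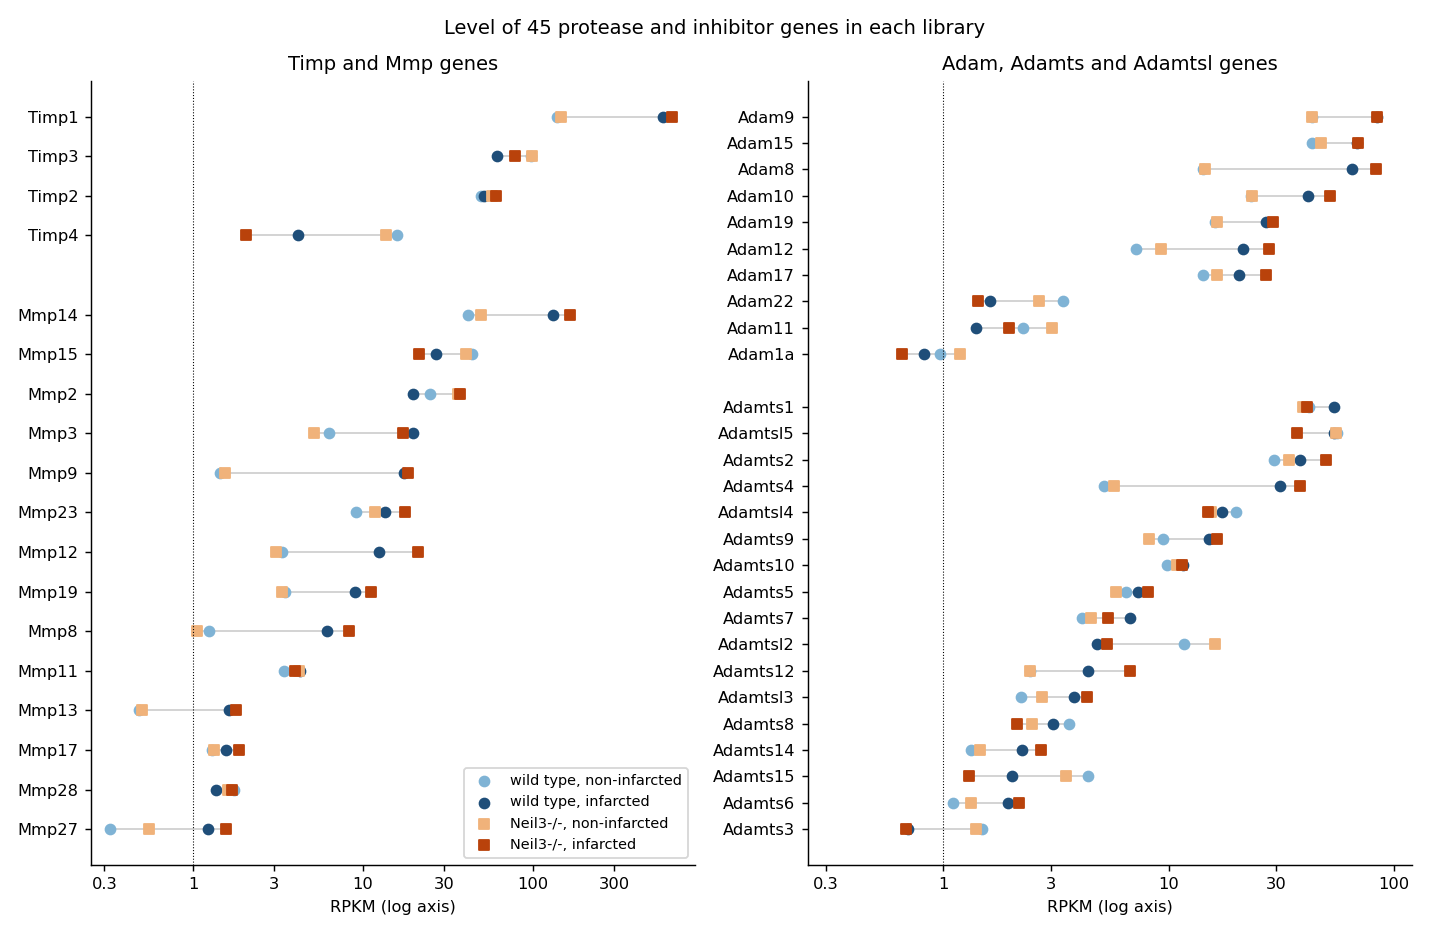
Level of each of the 45 members that reached 1 RPKM, with RPKM on a log axis and 1 point per library (circles wild type, squares Neil3-/-, pale non-infarcted, dark infarcted). Dark and pale points lie far apart for Timp1, Timp4, Mmp9, Mmp8, Mmp12, Adam8 and Adamts4, with 1 genotype near the other for Timp1 and Mmp9; the dotted line marks 1 RPKM.

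Infarcted and non-infarcted ventricle were compared first, within each genotype. In wild type, 10 of the 44 members compared exceeded 2-fold in favour of infarcted tissue on the log2(RPKM + 1) scale (22.7%), where 6.21% of all 12515 genes compared were. They were Mmp3, Mmp8, Mmp9, Mmp12, Mmp14, Mmp19, Adam8, Adam12, Adamts4 and Timp1. In the libraries labelled Neil3-/-, 12 of 45 members were at least 2-fold higher (26.7%), against 8.2% of 12563 genes, and all 10 of the wild-type list were among them, joined by Adam10 and Adamts12. On the log2(RPKM + 1) scale only Timp4 and Adamtsl2 were at least 2-fold lower, in both genotypes. This is 4.55% of members against 3.6% of genes in wild type and 4.44% against 6.07% in those labelled Neil3-/-. The member median of the log2 ratio was 0.50 in wild type and 0.52 in those labelled Neil3-/-, beside 0.21 and 0.24 over all genes compared. At 1.5-fold, 19 members were higher and 6 lower in wild type (all genes 21.6% and 9.56%), and 19 and 5 in those labelled Neil3-/- (all genes 25% and 12.4%). Counting intervals lay above 1 for 28 of 44 members and below 1 for 10 in wild type (63.6% and 22.7%, all genes 51.8% and 22%), and for 28 and 10 of 45 in those labelled Neil3-/- (62.2% and 22.2%, all genes 53.6% and 24.1%).

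Scaling by the median gene ratio or by TMM, in place of the library total, lowered the median of all genes by 0.20 in wild type under both, and by 0.23 and 0.21 in those labelled Neil3-/-. Under both scalings members higher in infarcted tissue numbered 9 in wild type and 10 in those labelled Neil3-/-, and members lower numbered 3 and 4. Under median-ratio scaling these are 20% and 22.2% of 45 members higher, where 3.57% and 4.11% of all genes were, and 6.67% and 8.89% lower, where 6.25% and 8.77% of all genes were. Under TMM the shares of all genes were 3.64% and 4.37% higher and 6.15% and 8.45% lower. The share of members lower was thus near that of all genes under both. The higher share of the called members was 75% in wild type (83.3% as deposited) and 71.4% in those labelled Neil3-/- (85.7% as deposited). Mmp19 in wild type and Adam10 and Adamts12 in those labelled Neil3-/- were then under 2-fold, and Adamts15 in both genotypes and Mmp15 in those labelled Neil3-/- were then at least 2-fold lower.

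The inhibitors went in different directions. Timp1, the inhibitor that inflamed tissue induces, was at 139 RPKM (non-infarcted) and 584 RPKM (infarcted) in wild type, and at 147 and 655 RPKM in those labelled Neil3-/-. Both infarcted libraries were high, by 4.20-fold (4.0 to 4.42) and 4.47-fold (4.26 to 4.70). Timp4, the inhibitor found mainly in heart and other muscle, was at 15.9 and 4.13 RPKM in wild type and at 13.6 and 2.06 RPKM in those labelled Neil3-/-, from 336, 101, 275 and 53 reads. It was thus 3.85-fold (3.08 to 4.86) and 6.61-fold (4.91 to 9.04) lower in infarcted tissue. Timp3, which binds to the matrix and also inhibits ADAM17, was at 97.7 and 61.6 RPKM in wild type and at 99.0 and 79.0 RPKM in those labelled Neil3-/-, 1.59-fold (1.53 to 1.65) and 1.25-fold (1.21 to 1.30) lower in infarcted tissue. Timp2, which also takes part in the activation of proMMP2, differed least, at 49.4 and 51.6 RPKM and at 57.4 and 60.4 RPKM, and its infarct ratio was above 1 as deposited and below 1 under both other scalings.

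Timp1 made up 46.0% (non-infarcted) and 83.3% (infarcted) of the summed Timp level in wild type, and 46.3% and 82.2% in those labelled Neil3-/-. Timp3 made up 32.4% and 8.78% of that sum in wild type. The summed Timp level was 302 and 702 RPKM in wild type and 317 and 797 RPKM in those labelled Neil3-/-. Summed Mmp RPKM was 142 and 267 in wild type and 160 and 328 in those labelled Neil3-/-. Both families were thus higher in infarcted tissue, and the ratio of summed Timp to summed Mmp RPKM was 2.12 and 2.63 in wild type and 1.98 and 2.43 in those labelled Neil3-/-.

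**Figure D2:**
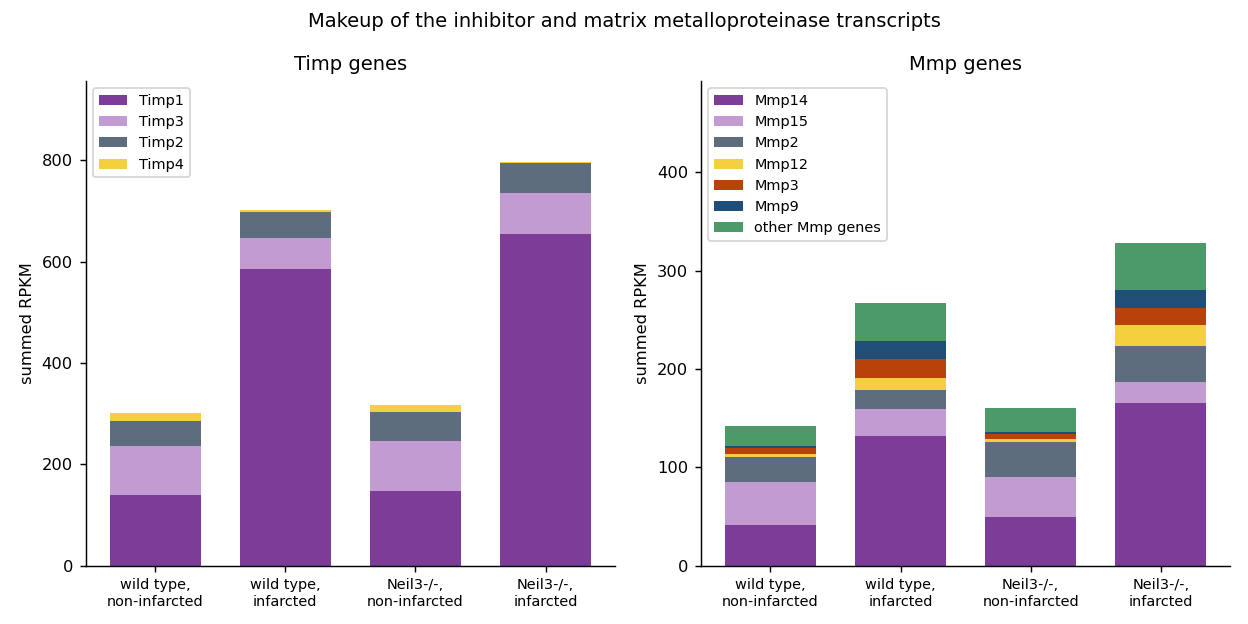
Summed RPKM of the 4 Timp genes (left) and the 14 Mmp genes (right) that reached 1 RPKM, as bars stacked by gene, 1 bar per library. Timp1 makes up 83.3% and 82.2% of the Timp bar in the infarcted libraries, and Mmp14 makes up 49.5% and 50.3% of the Mmp bar there.

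Among MMPs, the membrane-bound collagenase Mmp14, which also activates proMMP2, had the highest level in infarcted tissue. It was at 41.6 and 132 RPKM in wild type and at 49.4 and 165 RPKM in those labelled Neil3-/-, a ratio of 3.17 (3.00 to 3.36) and 3.35 (3.18 to 3.53). Both infarcted libraries lie above both non-infarcted ones. Mmp15, a membrane-bound relative at a level near that of Mmp14 in non-infarcted tissue, was lower in infarcted tissue instead. It was at 43.9 and 26.9 RPKM in wild type and at 40.4 and 21.4 RPKM in those labelled Neil3-/-, 1.63-fold (1.54 to 1.73) and 1.89-fold (1.78 to 2.01) lower. Mmp14 accordingly made up 29.2% and 49.5% of the summed Mmp level in wild type, and Mmp15 30.8% and 10.1%.

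The gelatinases Mmp2 and Mmp9 did not share a pattern. Mmp9, the gelatinase stored in neutrophil granules, was at 1.43 and 17.5 RPKM in wild type and at 1.54 and 18.5 RPKM in those labelled Neil3-/-, the highest ratio of any member in both genotypes. Mmp2, the gelatinase made by fibroblasts and other resident cells, was at 24.7 and 19.8 RPKM in wild type and at 36.3 and 37.1 RPKM in those labelled Neil3-/-. Its infarct ratio was 0.80 (0.735 to 0.871) in wild type, and 1.02 (0.957 to 1.09) in those labelled Neil3-/-, where it was below 1 under both other scalings. Mmp2 was therefore more abundant than Mmp9 in all 4 libraries, but the gap was small in wild-type infarcted tissue.

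The 5 MMP genes of the chromosome 9 stretch that reached 1 RPKM, among them those whose promoters are shown above, had counting intervals above 1 in both genotypes. Mmp10, in the same stretch, had 3 reads or fewer in every library. Mmp12, the macrophage elastase, was at 3.35 and 12.4 RPKM in wild type and at 3.07 and 21.2 RPKM in those labelled Neil3-/-, a ratio of 3.72 (3.16 to 4.39) and 6.91 (5.86 to 8.2). Mmp8, the neutrophil collagenase, was at 1.23 and 6.16 RPKM and at 1.06 and 8.24 RPKM, with ratios of 5.01 (3.64 to 7.03) and 7.81 (5.56 to 11.3). Mmp3, stromelysin-1, which activates other proMMPs, was at 6.32 and 19.6 RPKM and at 5.16 and 17.2 RPKM, with ratios of 3.09 (2.61 to 3.68) and 3.34 (2.76 to 4.05). The remaining pair had low levels. Mmp13, the main interstitial collagenase of rodents, was at 0.477 and 1.62 RPKM and at 0.497 and 1.79 RPKM, and Mmp27 at 0.324 and 1.22 RPKM and at 0.549 and 1.56 RPKM. Their RPKM ratios were 3.41 (2.04 to 5.97) and 3.60 (2.17 to 6.26) for Mmp13 and 3.78 (1.72 to 9.42) and 2.84 (1.51 to 5.72) for Mmp27, but the added 1 RPKM holds both under 2-fold on the log2 scale. Mmp27 rests on 8, 35, 13 and 47 reads.

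Mmp19, a secreted MMP outside that stretch, was also past 2-fold in both genotypes. It was at 3.48 and 8.97 RPKM in wild type and at 3.32 and 11.1 RPKM in those labelled Neil3-/-, a ratio of 2.57 (2.17 to 3.07) and 3.33 (2.81 to 3.98). Smaller ratios were found for the rest. Mmp23 was at 9.04 and 13.5 RPKM and at 11.8 and 17.5 RPKM, 1.49-fold higher in each genotype (1.25 to 1.79 and 1.27 to 1.74). The intervals of Mmp11 and Mmp28 included 1 in both genotypes. Mmp11, stromelysin-3, was at 3.44, 4.28, 4.20 and 3.96 RPKM, and Mmp28, epilysin, at 1.74, 1.35, 1.60 and 1.69 RPKM (wild-type non-infarcted and infarcted, then Neil3-/- non-infarcted and infarcted). Mmp17, an MMP anchored to the membrane by a lipid, was at 1.29, 1.56, 1.32 and 1.86 RPKM in the same order, and its interval lay above 1 only in those labelled Neil3-/- (1.03 to 1.93); the difference between genotypes was not tested.

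Of the ADAM genes, 7 were at 7 RPKM or more in every library, and all 7 were higher in both infarcted libraries. Adam8, a leukocyte ADAM, was at 14.2 and 65.1 RPKM in wild type and at 14.6 and 83.1 RPKM in those labelled Neil3-/-, a ratio of 4.58 (4.21 to 4.99) and 5.71 (5.26 to 6.22). Adam12, which is expressed in mesenchymal cells and regenerating muscle, was at 7.2 and 21.5 RPKM and at 9.26 and 28.0 RPKM, with ratios of 2.98 (2.76 to 3.22) and 3.02 (2.82 to 3.24). The sheddases had smaller ratios. Adam10, which cuts Notch receptors and cadherins, was at 23.3 and 41.5 RPKM and at 23.6 and 52.3 RPKM, with ratios of 1.78 (1.67 to 1.89) and 2.22 (2.09 to 2.35). Adam17, the enzyme that releases tumour necrosis factor, was at 14.2 and 20.5 RPKM and at 16.4 and 27.2 RPKM, with ratios of 1.45 (1.33 to 1.57) and 1.66 (1.54 to 1.79).

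Adam9, the most abundant ADAM in infarcted tissue, gave the same ratio in both genotypes, 1.94 (1.85 to 2.03), from 43.5 and 84.4 RPKM in wild type and 43.4 and 84.2 RPKM in those labelled Neil3-/-. Adam15, which carries an integrin-binding motif, was at 43.4 and 68.9 RPKM and at 47.4 and 69.2 RPKM. Adam19, which has a role in heart valve and septum development, was at 16.1 and 27.2 RPKM and at 16.4 and 29.1 RPKM. Adam15 was 1.59-fold and 1.46-fold and Adam19 1.69-fold and 1.78-fold higher in infarcted tissue. The other 3 ADAM genes that reached 1 RPKM had lower values there. Adam22 and Adam11, ADAMs without protease activity that are best known from neurons, were at 3.38, 1.60, 2.65 and 1.42 RPKM and at 2.25, 1.40, 3.04 and 1.96 RPKM (wild-type non-infarcted and infarcted, then Neil3-/- non-infarcted and infarcted). Intervals of both lay below 1 in each genotype. Adam1a was at 0.970, 0.819, 1.19 and 0.653 RPKM in that order, and since the paralog Adam1b is also listed, reads may have been split between them.

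Adamts4 had the largest ratio among ADAMTS genes. Adamts4, an aggrecanase that cuts versican and aggrecan, was at 5.15 and 31.2 RPKM in wild type and at 5.72 and 38.4 RPKM in those labelled Neil3-/-, a ratio of 6.05 (5.34 to 6.88) and 6.73 (5.97 to 7.61). The other proteoglycan-cutting members were Adamts1 (41.8, 54.3, 39.4 and 41.2 RPKM in the library order above), Adamts5 (6.45, 7.33, 5.83 and 8.10 RPKM), Adamts8 (3.62, 3.08, 2.47 and 2.13 RPKM), Adamts9 (9.41, 15.1, 8.16 and 16.3 RPKM) and Adamts15 (4.38, 2.02, 3.52 and 1.29 RPKM). Adamts9 had infarct ratios of 1.60 (1.47 to 1.74) and 2.0 (1.83 to 2.19). By RPKM, Adamts15 was 2.17-fold (1.83 to 2.58) and 2.72-fold (2.22 to 3.35) lower. Once 1 RPKM is added, both genes are under 2-fold in both genotypes. The infarct ratio of Adamts5 in wild type and of Adamts1 in those labelled Neil3-/- turned below 1 under both other scalings.

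The procollagen N-proteinases were split. Adamts2, which removes the amino-terminal propeptide of fibrillar collagens, was at 29.5 and 38.4 RPKM in wild type and at 34.3 and 50.1 RPKM in those labelled Neil3-/-. Its relative Adamts14 was at 1.33, 2.23, 1.46 and 2.71 RPKM, higher in infarcted tissue as well. Adamts3, the remaining member of that group, was lower in infarcted tissue, at 1.48 and 0.695 RPKM and at 1.39 and 0.681 RPKM, 2.13-fold (1.64 to 2.78) and 2.05-fold (1.57 to 2.68). Adamts7 and Adamts12, which cut cartilage oligomeric matrix protein, were both higher in infarcted tissue. Adamts12 was at 2.43 and 4.37 RPKM in wild type and at 2.44 and 6.72 RPKM in those labelled Neil3-/-, with ratios of 1.79 (1.53 to 2.11) and 2.76 (2.37 to 3.23), and Adamts7 at 4.11 and 6.74 RPKM and at 4.53 and 5.37 RPKM, with ratios of 1.64 (1.43 to 1.88) and 1.19 (1.03 to 1.36), the latter with a log2 ratio below 0 under median-ratio scaling. Adamts10, which is tied to fibrillin, was at 9.85, 11.5, 10.9 and 11.5 RPKM and Adamts6 at 1.10, 1.95, 1.32 and 2.16 RPKM. The sign of the small Adamts10 difference turned under median-ratio scaling in both genotypes and under TMM in those labelled Neil3-/-.

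ADAMTS-like proteins share the ancillary domains of ADAMTS enzymes but have no protease domain. Adamtsl2, which binds latent TGF-beta binding protein, was at 11.7 and 4.82 RPKM in wild type and at 16.1 and 5.34 RPKM in those labelled Neil3-/-, 2.43-fold (2.10 to 2.82) and 3.01-fold (2.64 to 3.45) lower in infarcted tissue. Adamtsl3 was higher there, at 2.22, 3.79, 2.73 and 4.34 RPKM, and Adamtsl4 was at 19.9, 17.2, 15.4 and 14.9 RPKM. Adamtsl5, the most abundant of the group, was level in wild type at 56.0 and 54.1 RPKM and lower in infarcted tissue labelled Neil3-/-, at 55.3 and 37.3 RPKM.

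**Figure D3:**
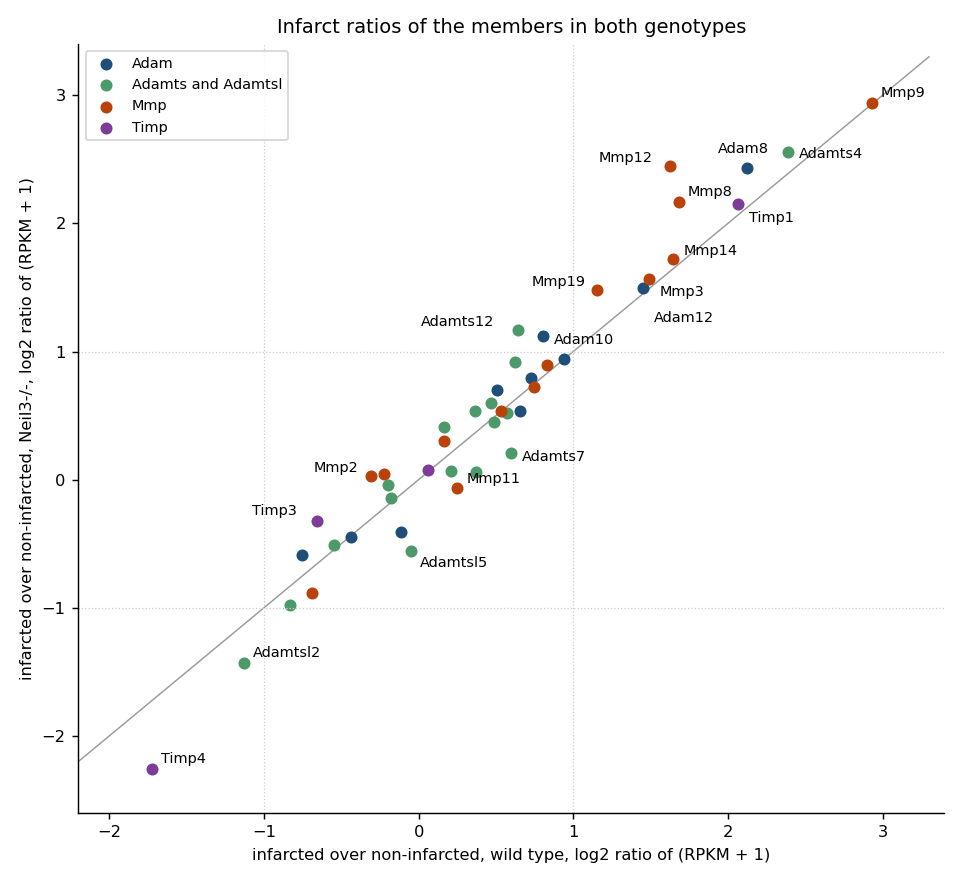
Log2 ratio of (RPKM + 1) between infarcted and non-infarcted tissue for each of the 45 members, in wild type (x axis) and in those labelled Neil3-/- (y axis), coloured by family, with the line of equal ratios and dotted lines at 2-fold. Mmp9 lies at the top right on the line, Timp4 and Adamtsl2 at the bottom left, and Mmp12, Mmp8 and Adamts12 lie farthest above the line.

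The infarct ratios of both genotypes are set side by side in the plot of infarct ratios. A total of 30 members lay above 0 in both genotypes, 12 below 0 in both and 3 (Mmp2, Mmp11 and Mmp28) on opposite sides, as deposited. The log2 ratio was larger in those labelled Neil3-/- for 29 members and smaller for 16. The same counts were not made over all genes. The median over all genes was also above 0 in both genotypes, at 0.21 in wild type and 0.24 in those labelled Neil3-/-. The counts are therefore not read as particular to the members. The difference of the log2 ratios, labelled Neil3-/- minus wild type, was highest for Mmp12 (0.82), Adamts12 (0.52) and Mmp8 (0.49). It was lowest for Timp4 (-0.53), Adamtsl5 (-0.51) and Adamts7 (-0.40). These differences rest on 4 single libraries and were not tested.

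Cell type markers also differed between the tissues. The summed RPKM of 7 neutrophil markers was 27.3 and 200 in wild type and 23.4 and 235 in those labelled Neil3-/-, and 5 of 5 compared passed 2-fold upwards in each genotype. That of 9 monocyte and macrophage markers was 418 and 1117 and 687 and 1546, with 7 and 6 of 9 at least 2-fold higher. Cardiomyocyte markers (7 genes) summed to 31079 and 15559 and to 29357 and 10294 RPKM, with 5 and 7 of 7 at least 2-fold lower. Fibroblast markers (7 genes) summed to 1530 and 2039 and to 1971 and 3121 RPKM, and 0 and 1 of 7 were at least 2-fold higher. They did not move as a set in wild type. Col1a1 (440 and 821 RPKM), Col1a2 (283 and 473 RPKM), Pdgfra and Tcf21 were higher in infarcted tissue there. Dcn, Lum and Postn were lower, with RPKM ratios of 0.811, 0.836 and 0.976 and intervals below 1. In those labelled Neil3-/-, only Dcn was lower, with a ratio of 0.947. No marker of these lists was at 0 apart from 1 neutrophil marker in each non-infarcted library. Sums in the library order above were 273, 445, 262 and 426 RPKM for 6 endothelial markers, 401, 585, 426 and 762 RPKM for 6 smooth muscle and pericyte markers and 1.19, 4.88, 1.53 and 5.42 RPKM for 5 lymphocyte markers, of which 1 was at 0 in the non-infarcted library labelled Neil3-/-. The smooth muscle sum is mostly Acta2 (198, 376, 225 and 479 RPKM), while Myh11 (10.8, 6.05, 10.1 and 6.79 RPKM) and Rgs5 (102, 50.3, 85.7 and 50.6 RPKM) were lower in infarcted tissue. Among the endothelial markers, Kdr (43.0, 38.1, 41.5 and 34.0 RPKM) was lower in infarcted tissue and the others were higher. Of 4 mast cell markers, Kit was at 3.17, 12.2, 3.07 and 11.2 RPKM, and Cpa3, Mcpt4 and Tpsb2 had 7 to 12 reads in every library. The part of these cells in the protease ratios was not tested, and in such bulk tissue fewer cells of a type cannot be told apart from less RNA per cell.

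Genotypes were then compared within infarcted tissue. On the log2(RPKM + 1) scale, Mmp2 and Mmp12 were higher and Timp4 was lower in the library labelled Neil3-/-, each by at least 1.5-fold. No member reached 2-fold in either direction on that scale, where 0.249% of 12464 genes were at least 2-fold higher and 0.241% lower. At 1.5-fold, 2 of 43 members were higher (4.65%, against 1.51% of all genes) and 1 lower (2.33%, against 1.55%). Mmp2 was at 37.1 RPKM against 19.8 RPKM in wild type, 1.88-fold (1.74 to 2.02). Mmp12 was at 21.2 against 12.4 RPKM, 1.70-fold (1.56 to 1.86). Timp4 was at 2.06 against 4.13 RPKM, from 53 and 101 reads, 2.01-fold (1.43 to 2.86) lower by RPKM and by less once 1 RPKM is added.

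Smaller ratios leaned upwards. The member median of the log2 ratio was 0.16, beside 0.02 over all genes, and the counting interval lay above 1 for 22 of 43 members (51.2%, against 25.4% of genes) and below 1 for 9 (20.9%, against 19.4%). Adamts12 was 1.54-fold (1.37 to 1.73), Mmp8 1.34-fold (1.14 to 1.57), Adam17 1.32-fold (1.24 to 1.41), Adam12 and Adamts2 1.30-fold (1.24 to 1.37 for each), Timp3 and Adam8 1.28-fold (1.24 to 1.33 and 1.22 to 1.34), Adam10 1.26-fold (1.2 to 1.32) and Mmp14 1.25-fold (1.21 to 1.30) higher in the library labelled Neil3-/-. On the other side, Adamts15 was 1.56-fold (1.25 to 1.95), Adamtsl5 1.45-fold (1.36 to 1.54), Adamts8 1.44-fold (1.16 to 1.81), Adamts1 1.32-fold (1.26 to 1.38) and Mmp15 1.26-fold (1.18 to 1.34) lower. These are ratios of RPKM, and once 1 RPKM is added Adamts12 and Adamts15 are under 1.5-fold. The intervals of Mmp9 (0.966 to 1.15), Adam9 (0.962 to 1.03) and Adam15 (0.960 to 1.05) included 1. Summed Mmp RPKM was 1.23-fold higher than in wild type, summed Adam RPKM 1.13-fold and summed Timp RPKM 1.14-fold, while summed Adamts and Adamtsl RPKM was 0.961 of wild type. In the same comparison the median log2 ratio was 0.60 for fibroblast, 0.37 for monocyte and macrophage, 0.16 for neutrophil and -0.65 for cardiomyocyte markers, and their part in the protease values was not tested.

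**Figure D4:**
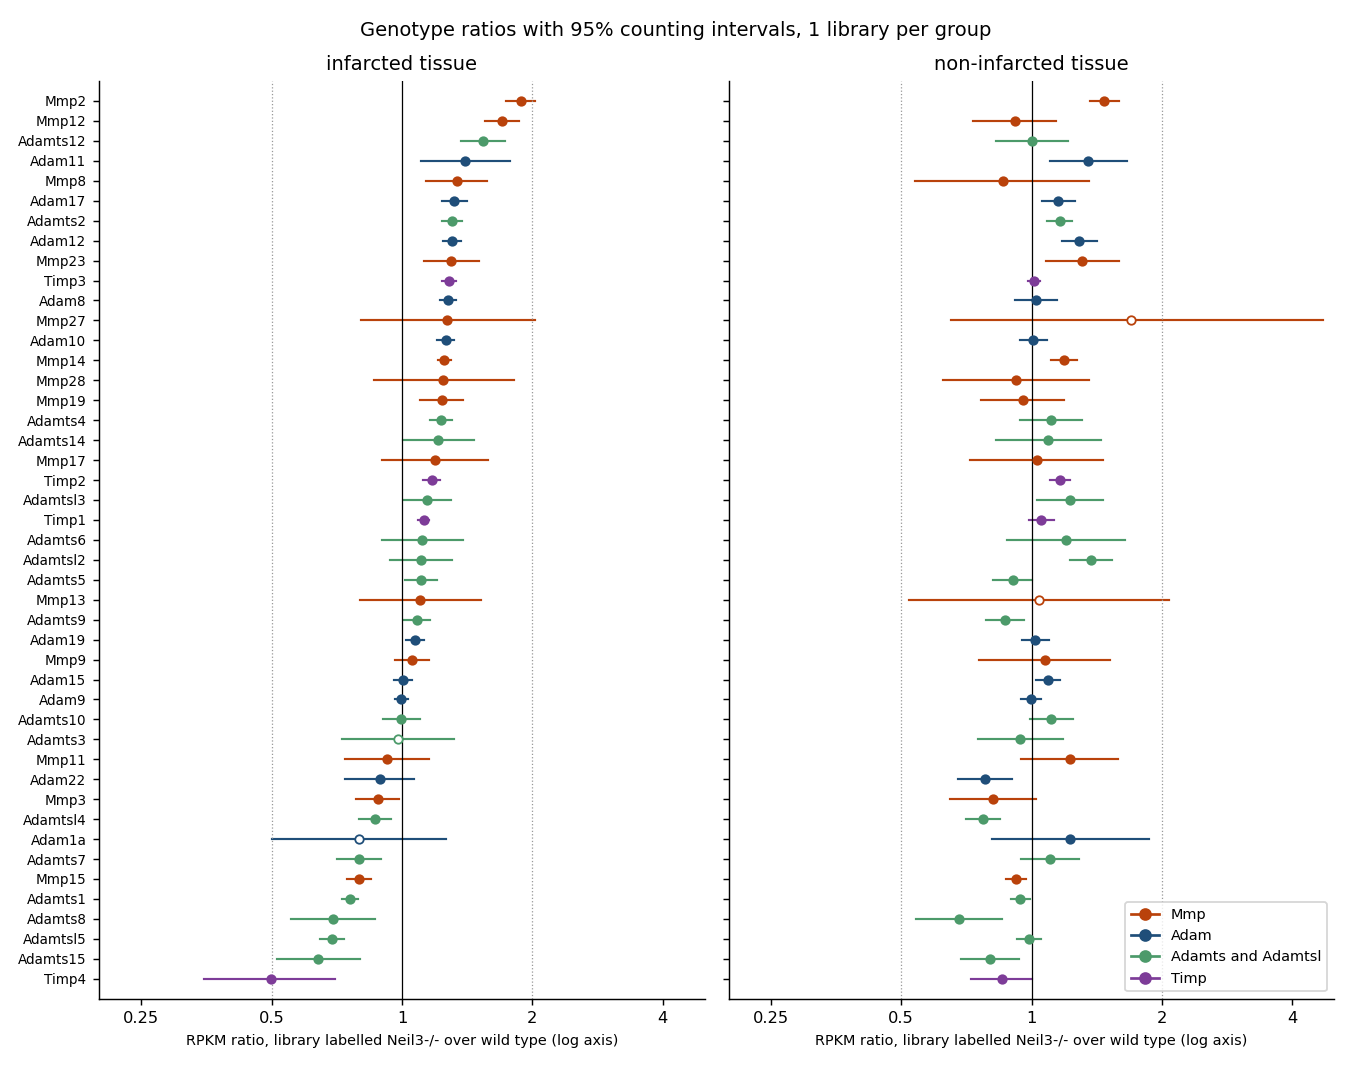
RPKM ratio of the library labelled Neil3-/- to wild type for each member in infarcted (left) and non-infarcted tissue (right), on a log axis, as points with exact 95% counting intervals; open points mark members below 1 RPKM in both libraries and dotted lines mark 2-fold. Members are ordered by the left panel, where Mmp2 at 1.88 is at the top and Timp4 at 0.498 at the bottom, and Mmp2 is also above 1 on the right.

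In non-infarcted tissue the genotypes lay closer. No member was 2-fold apart, against 0.254% of 12226 genes higher and 0.188% lower, and none 1.5-fold, against 1.14% and 0.613%. The member median was 0.03, beside 0.01 over all genes, and the counting interval lay above 1 for 11 of 43 members (25.6%, against 15.2% of genes) and below 1 for 7 (16.3%, against 10.8%). Mmp2 again had the highest ratio of the members compared, at 36.3 against 24.7 RPKM, 1.47-fold (1.36 to 1.59). Adamtsl2 was 1.37-fold (1.23 to 1.53), Adam11 1.35-fold (1.10 to 1.66), Mmp23 1.31-fold (1.08 to 1.59), Adam12 1.29-fold (1.17 to 1.41) and Mmp14 1.19-fold (1.11 to 1.27) higher in the library labelled Neil3-/-. Adamts8 was 1.47-fold (1.17 to 1.85), Adamtsl4 1.29-fold (1.18 to 1.42) and Adam22 1.28-fold (1.11 to 1.47) lower. Mmp12, with a ratio of 0.915 (0.734 to 1.14), and Adamts12, with one of 1.0 (0.827 to 1.21), were not higher here. The median log2 ratio was 0.29 for monocyte and macrophage, 0.21 for fibroblast, 0.0006 for neutrophil and -0.09 for cardiomyocyte markers. Of the fibroblast markers, Pdgfra (0.975) and Tcf21 (0.866) had RPKM ratios below 1, with intervals that included 1, and the others had ratios above 1. The part of these cell types in the protease values was not tested here either. Ratios of the 2 tissues can be read side by side only as values of separate pairs of libraries, since the difference between them was not tested.

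Genes that activate, bind or control these proteases, and genes of their substrates, were counted in the same way from lists of 25 genes each. Of the regulators and partners, 20 were compared, with 5 past 2-fold upwards in infarcted tissue and 0 downwards in each genotype, where 6.21% and 8.2% of all genes were past it upwards and 3.6% and 6.07% downwards. The named ones belong to the plasmin system and to thrombospondins, which bind MMPs. Plau, the urokinase, was at 7.59, 29.4, 6.54 and 24.8 RPKM, its receptor Plaur at 10.3, 40.7, 9.67 and 33.7 RPKM and Thbs1 at 42.7, 145, 46.8 and 210 RPKM, in the library order above. The median log2 ratio of the list was 0.42 and 0.50, beside 0.21 and 0.24 over all genes. Between genotypes 0 of 20 were 2-fold apart in either tissue on the log2(RPKM + 1) scale. The all-gene shares were 0.249% upwards and 0.241% downwards for infarcted tissue, and 0.254% and 0.188% for non-infarcted tissue. With shares this small, the count of 0 does not set the list apart. By RPKM alone, Thbs2 was 2.02-fold (1.88 to 2.17) higher in the infarcted library labelled Neil3-/-. Spock2 was 2.17-fold (1.72 to 2.76) lower in the non-infarcted one.

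Of the substrates, 23 were compared, and 6 in wild type and 8 in those labelled Neil3-/- passed 2-fold upwards in infarcted tissue, with 0 downwards, beside the same all-gene shares (6.21% and 8.2% upwards, 3.6% and 6.07% downwards). Their median log2 ratios were 0.74 and 0.84, beside 0.21 and 0.24 over all genes. Osteopontin, from Spp1, which several MMPs cut, was at 168, 837, 208 and 1388 RPKM, and fibronectin, from Fn1, at 147, 389, 206 and 651 RPKM. Both were high in both infarcted libraries. Nrg1, the growth factor neuregulin-1 that sheddases release, was at 0.319, 1.57, 1.13 and 4.0 RPKM and was high in both libraries labelled Neil3-/- relative to wild type of the same tissue, by 3.54-fold (1.71 to 8.04) and 2.55-fold (1.87 to 3.51) in non-infarcted and infarcted tissue by RPKM, though under 2-fold once 1 RPKM is added.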

How the data were processed

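Per the labels, total RNA was extracted with TRIzol and sequenced on an Illumina HiSeq 2000, with 1 library per group. Deposited counts are whole reads assigned uniquely to each gene; genes absent from a library's list were set to 0. The deposited RPKM values, computed by the authors, equal reads divided by listed length and library total (largest relative error 4.996e-15). The deposited coverage percent is read here as how much of a gene model had reads on it. Build mm9 is named in the submitters' processing notes. For the aligner, counting tool, strand use and annotation, nothing is stated in the labels used here.

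For each comparison, log2 ratios of (RPKM + 1) were computed for genes that reached 1 RPKM in either library of the pair, with Python 3.11.15 and pandas 2.3.3. Ratios of RPKM carry exact Clopper-Pearson 95% intervals of the read share (scipy 1.17.1). TMM factors came from edgeR 4.0.16 and median-ratio factors from DESeq2 1.42.0, as alternatives to the library total. No test was run on single libraries, and the script was tested on simulated data. The members and gene lists were chosen with earlier results of these data known. Every member that reached 1 RPKM is named, and of the other lists the 4 genes with the largest log2 ratio in any comparison, of which some are not reported here. Protein sequences were not used here, so the planned scan of protein motifs was not run. At these depths, 3 reads on a gene of 3 kb are 0.0549 to 0.0700 RPKM.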

Additional observations from a re-analysis of the deposited data

Results flagged for a closer look

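With library totals as deposited, Adamts9, an ADAMTS protease, was the 1 member whose counting intervals lay on opposite sides of 1 under the same contrast in the 2 tissues. The ratio of the library labelled Neil3-/- to wild type was 1.08 (1.01 to 1.16) in infarcted tissue and 0.867 (0.783 to 0.959) in non-infarcted tissue, from 1799 against 1575 reads and 706 against 849 reads. The levels were 16.3 against 15.1 RPKM and 8.16 against 9.41 RPKM. Median-ratio and TMM scaling shifted the all-gene median log2 ratio of this contrast in infarcted tissue by -0.035 and -0.026. Such a shift would carry the lower limit of 1.01 below 1, so the infarcted interval would then include 1. The difference between the tissues was not tested, each value rests on 1 library, and both ratios are small.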

How the results depend on the processing

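Counts of members at least 2-fold lower in infarcted tissue were 2 in each genotype as deposited, and 4 in the pair labelled Neil3-/- under both median-ratio and TMM scaling (8.89% of members, against 8.77% and 8.45% of all genes). In wild type they were 4 with 0.1 RPKM added (9.09%, against 5.06% of all genes) and 1 with 5 RPKM added in place of 1 (2.27%, against 1.81%). With a threshold of 1.5-fold, 19 members were higher and 6 lower in wild type (43.2% and 13.6%, against 21.6% and 9.56% of all genes). In those labelled Neil3-/-, 19 were higher and 5 lower (42.2% and 11.1%, against 25% and 12.4% of all genes). Between genotypes in infarcted tissue, 2 were higher and 1 lower (4.65% and 2.33%, against 1.51% and 1.55% of all genes). The member median of the infarct log2 ratio in those labelled Neil3-/- was 0.28 under median-ratio and 0.30 under TMM scaling. With 5 RPKM added it was 0.28 in wild type and 0.26 in those labelled Neil3-/-, and with no minimum level 0.16 and 0.17. Part of this lies in the construction, since the added value shrinks the ratios of low genes and no minimum brings in genes of few reads. No median of the members turned its sign under the alternatives run, and no member called at 2-fold turned its direction. The number at least 2-fold apart between genotypes was 0 under the 7 alternatives that keep the 2-fold threshold. The share of all genes there was at most 0.573% in either direction (non-infarcted, higher, with 0.1 RPKM added). Leaving out a library was not run, because each group has 1. No paired analysis was possible because no group has more than 1 library. Overlapping genes were listed in the files for 10 of the 45 members, among them Syn1, Syn2 and Syn3 for Timp1, Timp4 and Timp3, and without strand information their reads cannot be told apart. Syn1 was at 0.723 to 2.44 RPKM and the other two were below 1 RPKM in the 4 libraries. The fewest reads are behind Mmp27 (8 to 47).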

Other observations

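Reads covered a smaller part of the Mmp12 gene model than of other members with many reads. Coverage of Mmp12 was 45.1% and 50.3% in wild type and 42.6% and 50.4% in those labelled Neil3-/-, non-infarcted and infarcted in turn, from 180, 775, 158 and 1391 reads. Among the other 27 members with at least 500 reads in the infarcted library labelled Neil3-/-, coverage ran from 78.3% to 99.8% with a median of 97.9%. In wild-type infarcted tissue the other 25 such members ran from 76.6% to 99.97% with a median of 97.9%. RefSeq lists 2 start sites for Mmp12, and only 1 of them carries the TGANTCA match printed above. Which start was used was not tested.

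Of the 20 members below 1 RPKM in every library, the highest level was 0.876 RPKM, for Mmp16. Mmp25, an MMP of leukocytes, had 7 and 37 reads in wild type and 11 and 28 reads in those labelled Neil3-/-, non-infarcted and infarcted in turn. Adam2 and Mmp21 had no more than 1 read in any library. These 4 genes were chosen after their values were seen.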
